A study of Mus musculus with 6 samples.

Results

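Mitochondrial biogenesis, the making of new mitochondrial mass, is controlled by a small set of nuclear regulators, and 10 of their genes were followed here out of the 23886 genes listed in each library. They were chosen by name: the PGC-1 coactivator family (Ppargc1a, Ppargc1b and Pprc1), the nuclear respiratory factors and their companion receptor (Nrf1, Gabpa and Esrra), a pair of sirtuin deacetylases (Sirt1 and Sirt3) and both catalytic subunits of the AMP-activated protein kinase AMPK (Prkaa1 and Prkaa2). All 10 matched an Ensembl identifier in the deposited tables, and 7 of them passed the filter on low values and were tested. The study sequenced poly(A) RNA of wild type AML12 cells in 6 libraries, 3 of the untreated line (Control 2, 3 and 4) and 3 of cells kept in a static magnetic field, one that is constant in time (SMF 1, 2 and 3). AML12 is an immortalised mouse hepatocyte line derived from mice that carry a human TGF-alpha transgene, so both groups share that background and 1 cell line. The sources used here give neither the strength of the field nor the time of exposure. The labels do not say whether the 3 libraries of a group came from separate cultures, so p-values measure only the spread between these samples, which may be technical.

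In the standard scheme of this pathway, AMPK senses a fall in cellular energy and SIRT1 senses NAD+, and both act on PGC-1α, AMPK by phosphorylation and SIRT1 by deacetylation. PGC-1 proteins do not bind DNA themselves; they are recruited by transcription factors such as NRF1, GABP (also called NRF2, unrelated to the antioxidant factor of that name) and the orphan receptor ERRα, which switch on genes of the respiratory chain and of mitochondrial DNA maintenance, Tfam among them. SIRT3 works at the other end, deacetylating enzymes inside mitochondria, and its gene is a known ERRα and PGC-1α target in mouse cells. In liver, PGC-1α is also the fasting-induced coactivator of gluconeogenesis.

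Levels are given as FPKM, read counts divided by gene length and by library size. For most genes that length was that of all annotated exons together, not of the transcript expressed. Values of different genes thus compare per exon length, and genes with long unexpressed exons are understated. The libraries held between 15514530 (SMF 1) and 18200516 reads (Control 3), with overlap between the groups. Across the 11114 genes tested, libraries correlated at 0.9911 to 0.9927 (Pearson r of log2(FPKM + 1)) within groups and at 0.9865 to 0.9915 between groups; this is across genes, which are not independent replicates. Hepatocyte markers were mixed: Hnf4a was at 87.0 to 95.5 FPKM, Krt8 at 1871 to 2088 and Alb at 26.2 to 34.1, while Apoa2 was listed at 0 in every library. Bile duct, mesenchymal and immune markers were mixed too. Krt19, a bile duct keratin, was at 1024 to 1163 FPKM, Krt7 at 58.8 to 65.2 and Sox9 at 8.85 to 10.4, while Epcam did not exceed 0.0267. Vim, an intermediate filament of mesenchymal cells and many cultured lines, was at 580.4 to 636.2 and Col1a1 at 0.808 to 1.18. Pdgfrb and Acta2 did not exceed 0.0330, and Col1a2 and Dcn were listed at 0. Ptprc, the pan-leukocyte marker, did not exceed 0.0160, while the immune markers Cd68 and Lyz2 were at 2.05 to 3.08 and 0.196 to 0.748. Of 8 tested hepatocyte markers, 3 were higher in the SMF libraries without overlap, against 11.0% of all tested genes, and none passed limma. Their median log2 fold was 0.07, and 0.02 after a correction for GC content and length described below. Of the 8, 7 were above 0 before that correction and 4 after it. The part of these marker differences in the results below was not tested.

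The members differed from one another far more than the groups differed. Esrra and Pprc1 were the most abundant members, at 30.6 and 27.2 FPKM over all 6 libraries, and Ppargc1a, the member for which the pathway is best known, was at 0.655. No member passed the test between SMF and control libraries by limma on log2(FPKM + 1), where 0 of all 11114 genes passed (0%) and 1998 had an unadjusted p under 0.05, among them Esrra and Nrf1. By limma-voom on the reads recovered from the FPKM, which called 510 genes (4.59%), 1 member was called, Esrra, higher in the SMF libraries.

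The levels ran from among the more abundant genes down to single reads. Esrra (26.4 to 34.5 FPKM over the 6 libraries) and Pprc1 (25.5 to 28.6) overlapped in the controls and lay apart in the SMF libraries, where Esrra was the higher. They were followed by Prkaa1 (12.3 to 16.4), Gabpa (6.70 to 8.71), Nrf1 (4.90 to 5.87), Sirt3 (2.61 to 3.22), Sirt1 (1.30 to 1.86) and Ppargc1a (0.401 to 0.825), and from Pprc1 to Ppargc1a no library of one member overlapped any library of the next. Ppargc1b (0 to 0.121) and Prkaa2 (0 to 0.0218) closed the order and overlapped each other over all 6 libraries, though not within controls. Set against all tested genes, 83.3% had a lower mean level than Esrra, 65.2% a lower one than Prkaa1, 35.1% a lower one than Nrf1 and 6.57% a lower one than Sirt1. Since RNA came from whole cultures, a low level in every cell and expression in few cells cannot be told apart.

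**Figure D1:**
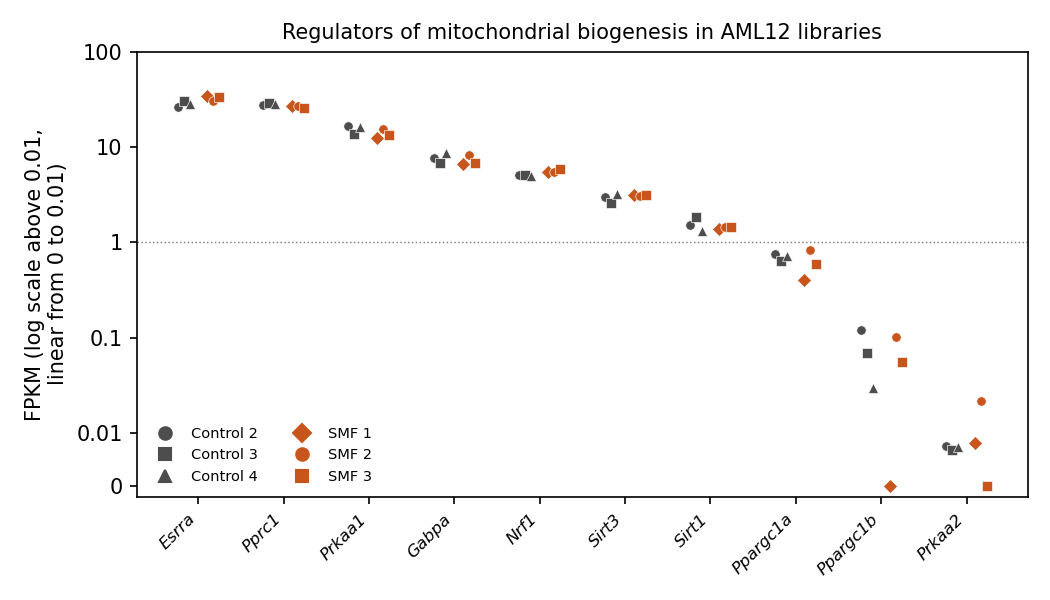
Level of the 10 regulators in each library, as FPKM (axis logarithmic above 0.01 and linear below), with members in order of their mean and 1 point per library, grey for Control and orange for SMF. Esrra and Pprc1 lead at 30.6 and 27.2 FPKM, and Ppargc1a, Ppargc1b and Prkaa2 lie below the filter of 1 FPKM.

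Promoter sequences of the pair of most abundant members and of Ppargc1a are shown to set strongly and weakly expressed regulators side by side. The stretches run from 120 bases before the start site up to it, read 5′ to 3′ along the gene from RefSeq (GRCm38.p6), with CpG dinucleotides in capitals: Ppargc1a at chr5:51567726-51567845 (minus strand), Pprc1 at chr19:46056419-46056538 (plus) and Esrra at chr19:6921809-6921928 (minus).
Ppargc1a: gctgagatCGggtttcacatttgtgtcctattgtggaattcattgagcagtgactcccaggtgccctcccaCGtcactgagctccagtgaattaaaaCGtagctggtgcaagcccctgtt
Pprc1: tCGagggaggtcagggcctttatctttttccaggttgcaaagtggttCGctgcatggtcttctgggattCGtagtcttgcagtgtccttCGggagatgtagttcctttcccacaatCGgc
Esrra: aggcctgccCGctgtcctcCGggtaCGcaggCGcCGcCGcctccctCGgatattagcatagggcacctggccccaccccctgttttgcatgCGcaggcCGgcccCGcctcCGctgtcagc
They hold 3, 5 and 11 CpG dinucleotides in turn. Over the full window of 300 bases, from 250 before to 50 after the start, Ppargc1a had 5, Pprc1 14 and Esrra 25, against a median of 7 in all 32851 windows of the table. Prkaa1 had 52 and Sirt1 47, more than 99.4% and 98.6% of windows, but Prkaa2, at the bottom of the order of levels, had 35 as well, so the CpG counts were not in the order of the levels.

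Exact matches to the sites of the factors themselves were few in these windows. Of 5 motifs searched on both strands in the 11 windows of 9 members (Ppargc1b was not matched), the ETS site CCGGAAG, the core that GABPα binds, stood in 2 windows, those of Gabpa itself and of Sirt3, and in 8.86% of all windows. The E-box CACGTG stood in 1, that of Sirt1, and in 7.15% of all windows. The NRF1 site GCGCATGCG (1.75% of all windows), the ERR element AAGGTCA (4.72%) and the CRE site TGACGTCA (1.79%) had no exact match in a member window. The ETS match of Gabpa lies 93 bases before the start (chr16:84834994-84835073, plus strand, shown from 130 to 51 bases before it) and that of Sirt3 85 bases before one of its 2 listed starts (chr7:140882355-140882434, minus strand, 125 to 46 bases before it); both read on the gene's strand as the reverse complement, in capitals.
Gabpa: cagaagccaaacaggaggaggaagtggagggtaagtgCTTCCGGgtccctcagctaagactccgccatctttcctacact
Sirt3: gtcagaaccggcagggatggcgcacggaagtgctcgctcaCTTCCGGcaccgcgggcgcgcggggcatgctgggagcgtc
Sirt1 carries its E-box at 115 and again at 43 bases before the start (chr10:63339056-63339175, minus strand, 140 to 21 bases before it), both in capitals.
Sirt1: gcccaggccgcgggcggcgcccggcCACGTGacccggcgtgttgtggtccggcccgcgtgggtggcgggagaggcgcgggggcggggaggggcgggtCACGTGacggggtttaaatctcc
These matches describe the letters only, and no binding was measured.

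Among the energy sensors, AML12 cells expressed 1 AMPK catalytic subunit almost alone. Prkaa1 (ENSMUSG00000050697), encoding the α1 catalytic subunit, was at 16.4, 13.5 and 16.0 FPKM in Control 2, 3 and 4 and at 12.3, 15.5 and 13.4 in SMF 1, 2 and 3. Control 3 lay with SMF 1 and SMF 3 at the low end, so the groups overlapped. The means were 15.3 ± 1.54 and 13.7 ± 1.61 FPKM (SD, n = 3), a log2 fold of -0.15 (95% interval -0.36 to 0.07; limma adjusted p = 0.424), here and below on the log2(FPKM + 1) scale unless limma-voom is named. The fold was -0.06 by limma and -0.04 by limma-voom when corrected for GC content and length, which removes a smooth trend in those properties within each library. limma-voom on uncorrected reads did not call it either (adjusted p = 0.253), except without SMF 2, where it was called lower (log2 fold -0.24, adjusted p = 0.0343). Prkaa2, encoding α2, the form that predominates in skeletal muscle, had 1 read in each control and 1, 3 and 0 reads in SMF 1, 2 and 3. Its pooled level was 0.00726 FPKM in controls (exact Poisson 95% interval 0.00150 to 0.0212) and 0.00989 in the SMF libraries (0.00269 to 0.0253), and the 0 reads of SMF 3 allow up to 0.0209 FPKM, taking 3 reads as the limit; such intervals cover counting error only. Per length, Prkaa1 exceeded Prkaa2 by 2100-fold in controls (exact 95% interval 718.0 to 10188, from 3680 and 3 reads) and 1394-fold in the SMF libraries (543.7 to 5117, from 3256 and 4 reads).

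The regulatory subunits, which complete the AMPK heterotrimer, showed the same reliance on 1 paralog. Prkab1 held 94.1% to 96.0% of summed β subunit FPKM, and Prkag1 94.4% to 95.7% of γ subunit FPKM. Prkag1, whose product binds the adenine nucleotides, was at 61.1, 63.2 and 69.7 FPKM in the controls and 67.7, 72.9 and 70.8 in the SMF libraries (log2 fold 0.12, adjusted p = 0.282; 0.07 when so corrected), with Control 4 inside the SMF range. Prkab1 was at 45.1 ± 0.657 and 46.6 ± 1.32 FPKM, with the SMF libraries above the controls by a narrow margin (log2 fold 0.05, adjusted p = 0.518; -0.0043 when so corrected). The minor β subunit gene Prkab2 was lower in all 3 SMF libraries, at 2.01 to 2.53 FPKM against 2.56 to 2.86, without passing (log2 fold -0.17, adjusted p = 0.348). Prkag2 was at 3.20 ± 0.229 and 3.13 ± 0.159 FPKM (adjusted p = 0.882). Both regulatory subunits thus stood well above the catalytic one as mRNA: the FPKM ratio of Prkab1 to Prkaa1 was 2.78 to 3.34 in the controls and 2.96 to 3.92 in the SMF libraries, and that of Prkag1 to Prkaa1 was 3.73 to 4.67 and 4.71 to 5.51, so that for the second the groups only just did not overlap.

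**Figure D2:**
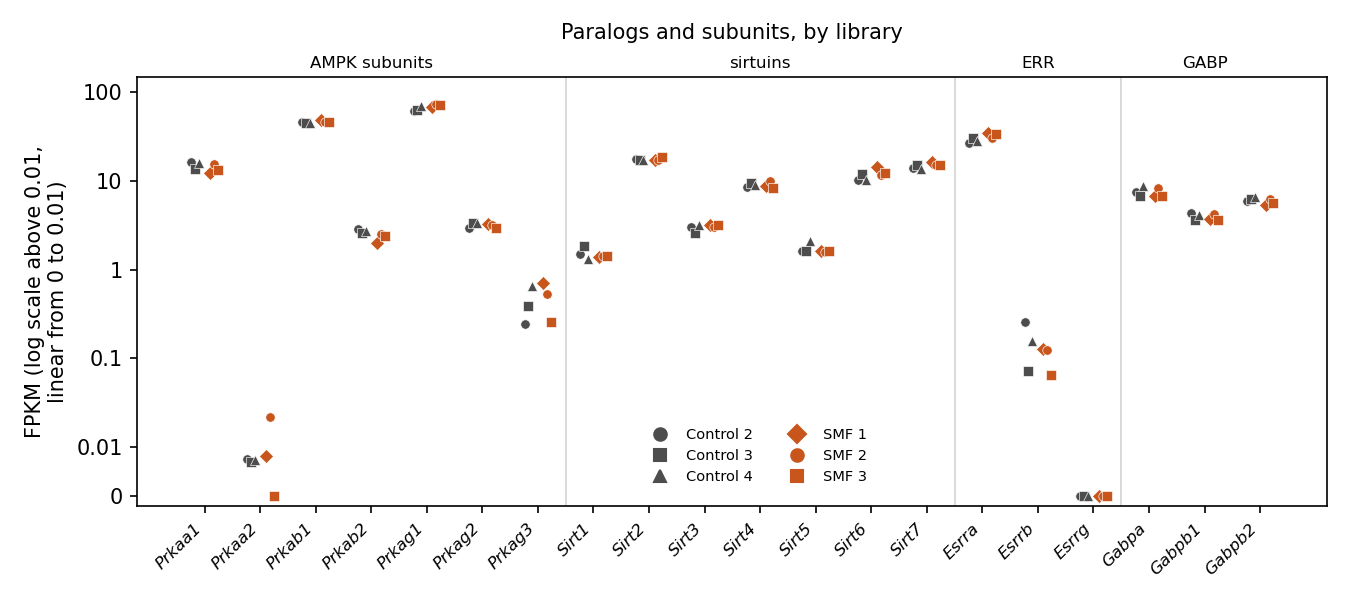
FPKM of AMPK subunits, sirtuins, estrogen-related receptors and GABP subunits in each library, on an axis that is logarithmic above 0.01 and linear from 0 to 0.01, grey for Control and orange for SMF. Prkaa1, Prkab1, Prkag1 and Esrra each stand far above their paralogs in every library, with Prkaa2 at 0 to 0.0218 FPKM and Esrrg at 0.

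Upstream of AMPK and among its substrates no gene passed. Of the 8 genes for LKB1, the calcium-dependent kinases CaMKK1 and CaMKK2, TAK1 and their partners, 2 had a fold above 0 and 6 below (median -0.02, against -0.01 for all tested genes). Corrected for GC content and length, the split turned to 6 above 0 (median 0.03). The most abundant, Cab39, which encodes the MO25 scaffold of the LKB1 complex, was at 33.6 ± 0.567 and 33.1 ± 2.18 FPKM (log2 fold -0.02, adjusted p = 0.833; 0.05 once corrected for GC content and length). Of 10 tested AMPK substrates 5 were above and 5 below 0 (median 0.00).

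Both sirtuin members were expressed at low levels. Sirt1 (ENSMUSG00000020063), the nuclear deacetylase of PGC-1α, was at 1.51, 1.86 and 1.30 FPKM in the controls and 1.38, 1.44 and 1.44 in the SMF libraries. The SMF libraries lay close together inside the wider range of the controls (1.56 ± 0.280 against 1.42 ± 0.0369; log2 fold -0.07, interval -0.32 to 0.18, adjusted p = 0.742), and without Control 3 the log2 fold was 0.0097. Among the nuclear sirtuins, Sirt1 held 4.34% to 6.40% of the FPKM summed with Sirt6 and Sirt7, a share that was 5.80 ± 0.620% in the controls and 4.83 ± 0.429% in the SMF libraries, the lowest control standing at 5.16% and the highest SMF library at 5.13%. Sirt3 (ENSMUSG00000025486), the main mitochondrial deacetylase, was at 3.01, 2.61 and 3.22 FPKM in the controls and 3.14, 3.05 and 3.16 in the SMF libraries. Here too the SMF libraries lay within the control range (log2 fold 0.06, interval -0.12 to 0.25, adjusted p = 0.695; 0.12 with the correction). Sirt3 held 19.2% to 24.0% of the FPKM of the mitochondrial sirtuins Sirt3, Sirt4 and Sirt5. The ratio of Sirt3 to Sirt1 ran from 1.41 to 2.48 in the controls and from 2.11 to 2.28 in the SMF libraries. Exons of the more abundant Ric8a and Psmd13 overlap those of Sirt3, as given below, which limits its level, share and ratio.

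The other sirtuins and the enzymes that make or use NAD+ gave no call either. Of 5 other sirtuins 4 were above 0, and Sirt2, a mainly cytoplasmic deacetylase and the most abundant, was at 17.3 ± 0.348 and 17.6 ± 0.636 FPKM (log2 fold 0.03, adjusted p = 0.783; -0.0074 under TPM scaling). Of 6 tested genes of NAD supply and use, 4 were below 0 (median -0.09), and Parp1, a large consumer of NAD+ in DNA repair, was at 25.7 ± 1.10 and 24.6 ± 1.10 (log2 fold -0.06, adjusted p = 0.534). SIRT3 substrates were 4 above and 2 below 0 of 6 tested. Idh2, mitochondrial isocitrate dehydrogenase and by a narrow margin over Glud1 the most abundant of these, was at 77.8, 81.5 and 79.4 FPKM in the controls and 89.9, 81.6 and 82.6 in the SMF libraries. The groups did not overlap, with Control 3 and SMF 2 nearly meeting, and the log2 fold of 0.09 did not pass (adjusted p = 0.340; 0.02 when corrected for GC content and length).

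The PGC-1 coactivators were represented almost entirely by Pprc1 (ENSMUSG00000055491), which encodes PRC, the family member tied to growth signals and proliferation rather than to fasting or cold. It held 96.7% to 98.5% of the summed FPKM of the family. Pprc1 was at 27.3, 28.6 and 28.1 FPKM in the controls and 27.1, 26.8 and 25.5 in the SMF libraries. All 3 SMF libraries lay below every control, but Control 2 and SMF 1 nearly met. The ratio of means was 0.945 and the log2 fold -0.08 (SE 0.04, interval -0.17 to 0.02), which did not pass (limma adjusted p = 0.349, limma-voom 0.295). Corrected for GC content and length, the log2 fold was -0.11 by limma (-0.19 to -0.02, adjusted p = 0.318). By limma-voom it was then -0.11 as well (-0.20 to -0.02, adjusted p = 0.220), and neither passed. Of all tested genes 12.7% were lower in the SMF libraries without overlap, so that 1 of 7 tested members is near the background.

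Ppargc1a (ENSMUSG00000029167), encoding PGC-1α, was at 0.758, 0.633 and 0.713 FPKM in controls, from 83, 76 and 80 reads, and at 0.401, 0.825 and 0.599 in the SMF libraries, from 41, 94 and 71 reads. SMF 1 was the lowest and SMF 2 the highest of all 6, so the exposed libraries enclosed the controls. The means were 0.701 ± 0.0632 and 0.609 ± 0.212 FPKM, and with fewer than 3 libraries at 1 FPKM the gene was not tested. Pooled over a group, counting error alone gave exact Poisson 95% intervals of 0.614 to 0.794 in the controls and 0.534 to 0.706 in the SMF libraries, which overlap. The FPKM of Pprc1 was 36.0 to 45.1 times that of Ppargc1a in the controls and 32.4 to 67.6 times in the SMF libraries. Ppargc1b, encoding PGC-1β, the family member linked to lipid synthesis in liver, had 8, 5 and 2 reads in the controls and 0, 7 and 4 in the SMF libraries. Its pooled level was 0.0725 FPKM (0.0406 to 0.120) and 0.0543 (0.0271 to 0.0972), and the 0 reads of SMF 1 allow up to 0.0485 FPKM. The intervals of the groups overlap and rest on few reads, and a difference in Ppargc1b was not tested.

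Most cofactors of the coactivators had a fold below 0, and none passed limma. Of 14 tested cofactors and modifiers of PGC-1, 13 had a fold below 0, against 5925 of all 11114 tested genes. The list median was -0.09, against -0.01 for all genes, and was -0.06 after the GC content and length correction. Without overlap, 4 of the 14 were lower, against 12.7% of all tested genes. Mybbp1a, a nucleolar protein that represses PGC-1α and the most abundant of the list, was at 91.7, 92.0 and 88.4 FPKM in the controls and 85.8, 85.9 and 84.1 in the SMF libraries (log2 fold -0.09, adjusted p = 0.238; limma-voom 0.156). The 1 pathway gene called by limma-voom on uncorrected reads was in this list: Ep300, the acetyltransferase p300, at 12.4, 13.1 and 13.0 FPKM in the controls and 11.0, 12.2 and 11.0 in the SMF libraries. Its limma-voom log2 fold was -0.17 (adjusted p = 0.0422), and limma on log2(FPKM + 1) did not call it (adjusted p = 0.209); it was named after its values were seen. Corrected for GC content and length, its limma-voom fold was -0.10 and the call was lost (adjusted p = 0.271), and no pathway gene was called by limma-voom without Control 2, Control 4, SMF 1 or SMF 3.

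Of the transcription factors, Esrra and Nrf1 were higher in every SMF library than in any control, and Gabpa was not. Of all tested genes, 11.0% were higher without overlap. Esrra (ENSMUSG00000024955), encoding ERRα, was at 26.4, 30.1 and 28.4 FPKM in the controls and 34.5, 30.3 and 33.5 in the SMF libraries. Control 3 and SMF 2 almost met, at 30.1 and 30.3. The means were 28.3 ± 1.87 and 32.8 ± 2.20 FPKM, a ratio of 1.16 and a log2 fold of 0.21 (SE 0.06, interval 0.06 to 0.35), with an unadjusted p of 0.0117 and an adjusted p of 0.188 by limma. For limma-voom, the reads of Esrra were recovered at a length searched for, 4414 bases, where its M21 exon length is 4387. limma-voom gave the same log2 fold of 0.21 (0.09 to 0.32) and called it (adjusted p = 0.0322). That call was lost without Control 2 (0.150), Control 4 (0.157), SMF 1 (0.172) or SMF 3 (0.168), each a limma-voom adjusted p, and was kept without Control 3 (0.0212) or SMF 2 (0.00173). Esrra made up 99.0% to 99.8% of the FPKM of the estrogen-related receptors, with Esrrb at 0.0644 to 0.259 FPKM and Esrrg listed at 0.

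Nrf1 (ENSMUSG00000058440), encoding nuclear respiratory factor 1, was at 5.11, 5.06 and 4.90 FPKM in the controls and 5.49, 5.49 and 5.87 in the SMF libraries. The groups were separated by a gap wider than the range of the controls. The means were 5.02 ± 0.112 and 5.62 ± 0.221 FPKM, a ratio of 1.12 and a log2 fold of 0.13 (SE 0.06, interval 0.01 to 0.26), with an unadjusted p of 0.0420 and an adjusted p of 0.261 by limma. limma-voom gave 0.16 (0.03 to 0.29) with an adjusted p of 0.139 and made no call. Corrected for GC content and length, its log2 fold was 0.22 (adjusted p = 0.244) by limma and 0.26 (0.13 to 0.39; adjusted p = 0.0376) by limma-voom, an alternative chosen after seeing the data and the 1 of 25 alternatives in which Nrf1 was called. Esrra was called there too (0.22, adjusted p = 0.0498). The ratio of Esrra to Nrf1 overlapped between groups, at 5.16 to 5.96 in the controls and 5.52 to 6.30 in the SMF libraries.

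Gabpa (ENSMUSG00000008976), encoding the DNA-binding α subunit of GABP, was at 7.58, 6.83 and 8.71 FPKM in the controls and 6.70, 8.27 and 6.79 in the SMF libraries. The groups overlapped fully (7.71 ± 0.948 and 7.25 ± 0.884; log2 fold -0.08, interval -0.30 to 0.15, adjusted p = 0.702), and the fold turned to 0.01 with the GC content and length correction. Its partner Gabpb1, which carries the activation domain, was at 4.34, 3.62 and 4.09 FPKM in the controls and 3.71, 4.23 and 3.64 in the SMF libraries (log2 fold -0.04, adjusted p = 0.789; 0.03 after the correction). The ratio of Gabpa to Gabpb1 stayed at 1.75 to 2.13 in the controls and 1.81 to 1.95 in the SMF libraries. Exons of the more abundant Atp5j overlap those of Gabpa, as given below.

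**Figure D3:**
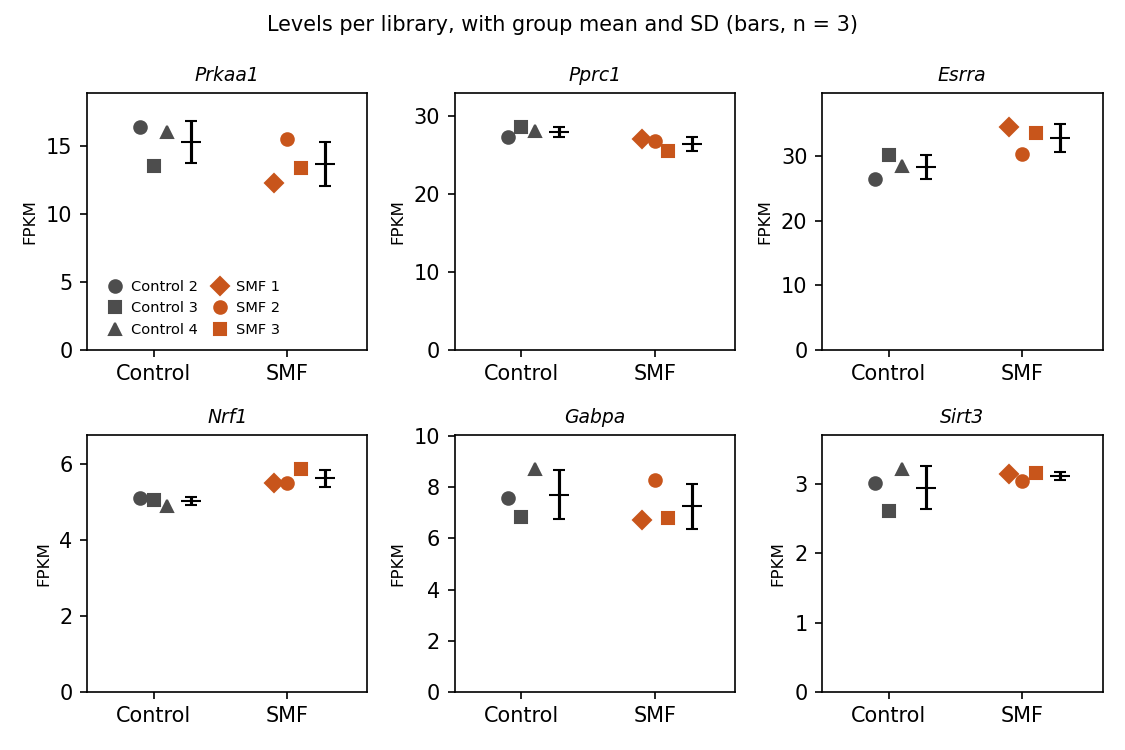
FPKM of 6 members in each library, with the mean and SD of each group (n = 3) drawn to the right of its points and every axis starting at 0. Esrra and Nrf1 lie higher in all SMF libraries and Pprc1 lower, while Prkaa1, Gabpa and Sirt3 overlap.

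Some members followed a pattern that crossed the groups. Prkaa1, Gabpa and Gabpb1 were each lowest in Control 3, SMF 1 and SMF 3 and highest in Control 2, Control 4 and SMF 2, a likeness singled out after the values were seen. Their GC content was 40.2%, 41.4% and 45.6%, against a median of 49.7% over the tested genes. The root mean square spread of log2(FPKM + 1) over the 6 libraries went from 0.142 to 0.0907 for Prkaa1 after the GC content and length correction, from 0.131 to 0.0935 for Gabpa and from 0.0849 to 0.0651 for Gabpb1, a smaller spread by a ratio of 0.640, 0.714 and 0.766; the median ratio over all tested genes was 0.926. The spread of Esrra was 0.128 before and 0.132 after, and that of Nrf1 was 0.0745 and 0.120. The exons of Nrf1 over all its transcripts cover 10282 bases, and its longest transcript has 45.4% GC. The part of GC content and length in the differences between groups was not tested beyond these corrected values.

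**Figure D4:**
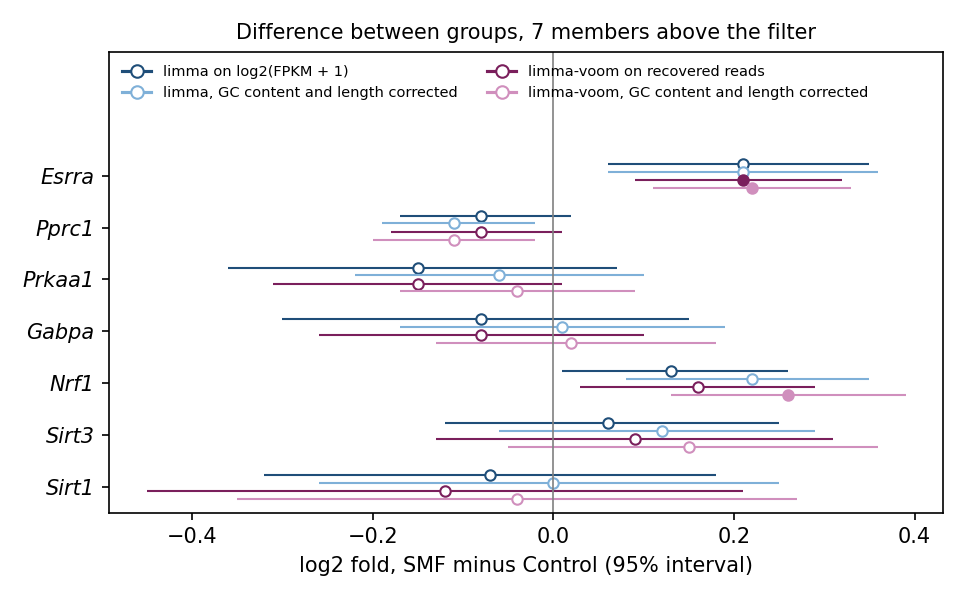
Log2 fold of SMF over Control for the 7 tested members with 95% intervals, by limma on log2(FPKM + 1) and by limma-voom on recovered reads, with and without the GC content and length correction; filled points have an adjusted p under 0.05. Esrra, at 0.21, and Nrf1, at 0.13, lie above 0 by limma, and the intervals of Gabpa, Sirt1, Sirt3 and Prkaa1 include 0. The interval of Pprc1 includes 0 without the correction and lies below 0 with it.

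Likeness of pattern was measured as the root mean square difference of mean-centred log2(FPKM + 1) over the 6 libraries, among the members and the pathway genes (104 compared with each member). Pprc1 was closest to Mybbp1a, at 0.0324, where the median gene was 0.0808 away. Nrf1 was closest to Uqcrh, a subunit of respiratory complex III, at 0.0263, and Esrra to Atp5g1, a subunit of the ATP synthase ring, at 0.0398. Sirt3 was closest to Sod2, the mitochondrial superoxide dismutase, at 0.0542, and Prkaa1 to Prkab2 at 0.0622. Gabpa had its closest genes at 0.0773 (Ncor1, a corepressor) and 0.0775 (Prkaa1), and Sirt1 at 0.0625 (Hcfc1). Genes of small spread lie close to one another by this measure, so the values are a description of 6 libraries.

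Downstream of the regulators, 98 of 116 listed pathway genes in 12 lists were tested, and none passed limma. Tfam, which packages mitochondrial DNA, helps start its transcription and is the classic NRF1 and GABP target, was at 16.7, 15.7 and 15.8 FPKM in the controls and 14.9, 15.3 and 16.8 in the SMF libraries. SMF 3 was the highest and SMF 1 the lowest of the 6, so that no shift was visible (log2 fold -0.03, adjusted p = 0.760; 0.02 once corrected for GC content and length). Of 13 genes for transcription and replication of mitochondrial DNA, 4 were above 0 and 9 below (median -0.05), and 7 were above 0 after the correction (median 0.01). Twnk, the mitochondrial helicase and the most abundant, was at 22.8 ± 0.866 and 23.8 ± 1.22 FPKM (log2 fold 0.06, adjusted p = 0.548).

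Most respiratory targets of NRF1 and GABP had a fold above 0. Of 11 tested, 10 had a fold above 0 (median 0.10, and 0.08 after the correction), against 5189 of all 11114 tested genes. Without overlap, 5 of the 11 were higher, against 11.0% of all tested genes. None of the 11 passed limma or limma-voom on uncorrected reads. Atp5g1 was called by limma-voom with the GC content and length correction (log2 fold 0.25, adjusted p = 0.0498; 0.20 and 0.0558 uncorrected), at 16.7, 18.7 and 16.9 FPKM in the controls and 21.6, 18.9 and 19.6 in the SMF libraries. Cox4i1, a subunit of cytochrome c oxidase and the most abundant, was at 245.3, 254.5 and 245.2 FPKM in the controls and 285.2, 254.0 and 276.3 in the SMF libraries. SMF 1 and SMF 3 were above every control and SMF 2 was not (log2 fold 0.13, adjusted p = 0.221; limma-voom 0.0759). Its fold was 0.02 when corrected for GC content and length (limma adjusted p = 0.813). The ERRα and PGC-1α target list was balanced, with 4 above and 5 below 0 of 9 tested (median -0.01). Atp5b, the catalytic β subunit of the ATP synthase, was its most abundant gene, at 335.4 ± 9.63 and 345.8 ± 6.69 FPKM (log2 fold 0.04, adjusted p = 0.522; -0.0074 after quantile normalization).

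**Figure D5:**
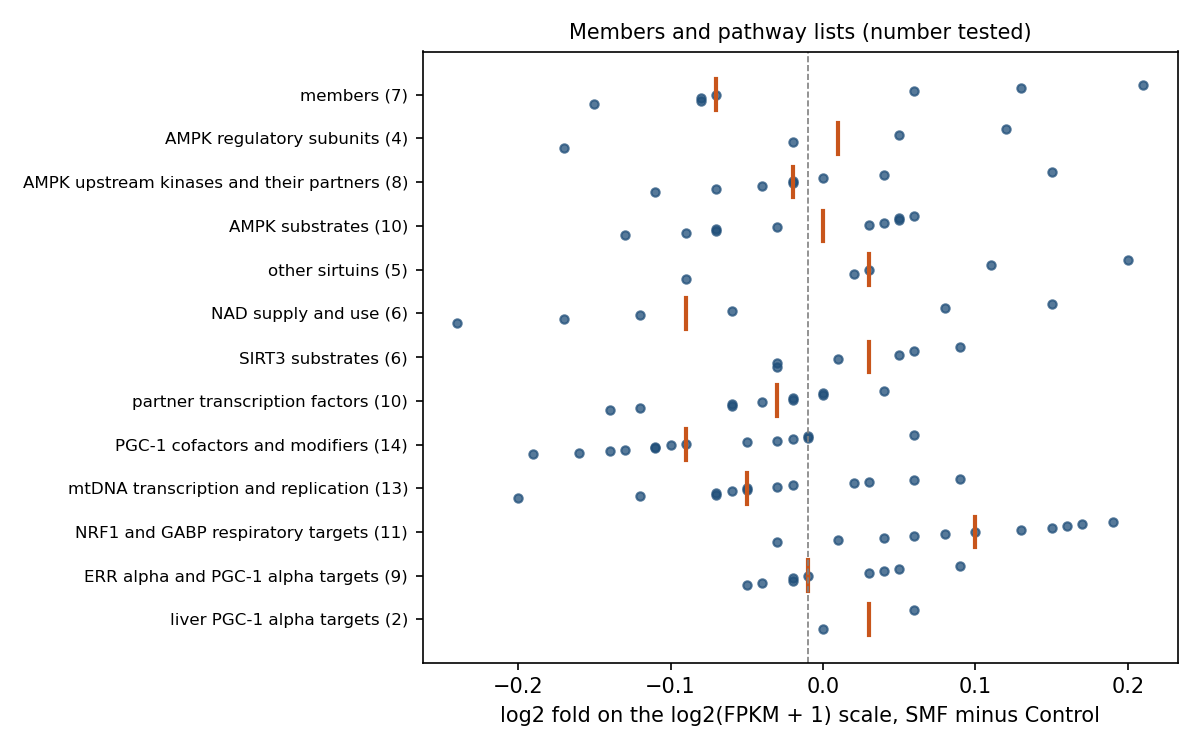
Log2 fold of SMF over Control (limma on log2(FPKM + 1)) for each tested gene of the 12 pathway lists and for the members, 1 point per gene, with the median of each list. The list medians run from -0.09 for PGC-1 cofactors and for NAD supply and use to 0.10 for NRF1 and GABP respiratory targets, and no point passed limma.

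Partner transcription factors and the liver targets of PGC-1α completed the pathway. Of 10 tested partners 9 were below 0 (median -0.03), against 5925 of all 11114 tested genes. When corrected for GC content and length, 4 of the 10 were above 0 (median -0.02). Hcfc1, a coactivator that PRC binds, was the most abundant at 33.9 ± 1.26 and 32.4 ± 0.712 FPKM (log2 fold -0.06, adjusted p = 0.435). Ppara was at 0.115 to 0.181 FPKM. Of 7 liver targets of PGC-1α, 2 were tested. Hnf4a, the liver nuclear receptor that PGC-1α coactivates, was at 91.6 ± 4.32 and 91.4 ± 1.95 FPKM (adjusted p = 0.975), while Pck1 and Cyp7a1, for gluconeogenesis and bile acid synthesis, were listed at 0 in all 6 libraries and G6pc did not exceed 0.0250 FPKM. The low level of Ppargc1a stood beside undetected or barely detected gluconeogenic targets in both groups.

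Exons of other genes overlap 4 members on the opposite strand, and since strand marking is not stated, reads in the shared stretch cannot be assigned to one of them. The shared part was 73 of 4387 M21 exon bases of Esrra (1.66%, with Trmt112), 177 of 6284 of Pprc1 (2.82%, with Ldb1), 397 of 5687 of Gabpa (6.98%, with Atp5j), and 418 and 342 of 5973 of Sirt3 (with Ric8a and Psmd13). Trmt112 was at 84.5 ± 4.41 and 90.9 ± 9.88 FPKM with the groups overlapping. Ldb1 was at 70.0 ± 1.00 and 76.9 ± 4.69, higher in the SMF libraries where Pprc1 was lower. Atp5j was at 33.6 ± 1.58 and 37.2 ± 1.51, higher in the SMF libraries without overlap, where Gabpa was at 7.71 and 7.25. Psmd13, at 45.4 ± 0.751 and 47.9 ± 1.36, was also higher without overlap. Ric8a was at 10.7 ± 0.556 and 11.8 ± 0.547 with the groups overlapping. Both stood far above Sirt3, at 2.95 and 3.12, so shared reads could make up much of the level of Sirt3. The part of the overlapping genes in the values of these members was not tested.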

How the data were processed

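RNA of 6 AML12 samples was measured, 3 per group, with group and replicate number taken from the sample titles. Per the labels' protocols, RNA was extracted with TRIZOL, poly(A) RNA was enriched with oligo(dT) beads, and the VAHTS Universal V6 kit turned randomly primed cDNA into libraries. The authors deposited 1 table of FPKM per library. GRCm39, HISAT2 2.1.0 and Bowtie2 2.2.3 are named in the submitters' processing notes, with no role or order; the sources used here name no counting tool or annotation.

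Symbols, exon length, GC content and the exon positions used for the overlaps came from GENCODE M21 (GRCm38), which named 23529 of 23886 identifiers. No coordinates from it are printed. Each FPKM proved to be whole reads divided by gene length and library total: of 22004 genes above 0, 100% were whole within 0.02 reads, 96.9% at the M21 exon length and 674 genes at a length searched for. Library totals were 15514530 to 18200516 reads, so that 1 read in a gene of 1 kilobase was worth 0.0549 to 0.0645 FPKM.

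limma 3.58.1 in R 4.3.3 compared the groups on log2(FPKM + 1) with a variance trend, two-sided, with Benjamini-Hochberg adjustment over the 11114 genes with at least 1 FPKM in at least 3 libraries and a threshold of 0.05. This scale understates the change of low genes. limma-voom on the reads recovered for these genes was an alternative, as were other pseudocounts, filters and scalings, a replicate block, a GC content and length correction (loess, span 0.3, 99.47% of tested genes) and leaving out each library. The GC content and length correction of limma-voom values, and limma-voom without each library, were chosen after seeing the data. The fits were also run on simulated reads with the same dispersion for every gene and no GC content or length trend. That setting differs from these libraries, so nothing is concluded from it.

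The members and lists were chosen with earlier results of these data known, so counts over them are descriptions. Named genes were the members, Tfam, Gabpb1, Prkab1, Prkab2, Prkag1, Prkag2, the most abundant tested gene of each list, up to 3 passing genes of each list, and the closest gene to each member; others were named as paralogs, markers or overlapping genes. The most abundant gene of 1 list is not reported here. Promoter windows came from a RefSeq table (GRCm38.p6). Exact intervals used scipy 1.17.1 and figures matplotlib 3.10.9 in Python 3.11.15.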

Additional observations from a re-analysis of the deposited data

How the results depend on the processing

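With other pseudocounts, no filter, TPM, median-of-ratios or quantile scaling, no variance trend or a threshold of 0.01, limma called no member. Over all genes it called 6 higher and 2 lower with a filter at 5 FPKM. For the numbers shared by the groups, 2 and 3, deviations from the group means correlated at r = 0.06 and 0.05. Pairs of unlike number gave -0.15 to 0.11. With 3 libraries per group, these values cannot settle whether libraries were paired. With a replicate block, the fold rests on libraries 2 and 3 of each group alone, since Control 4 and SMF 1 have no counterpart. In that fit 13 genes were higher and 6 lower (11 and 8 with the GC content and length correction), and no member was called. limma-voom called 242 genes higher and 268 lower, 1 member (higher) and 1 pathway gene (Ep300, lower); with the GC content and length correction it called 66 and 28, 2 members (higher) and 1 pathway gene, a different one (Atp5g1, higher). Leaving out 1 library gave 0 to 2 genes higher and 0 to 1 lower by limma, and 4 to 601 higher and 4 to 864 lower by limma-voom, the lowest without Control 4 and the highest without SMF 2; limma-voom then called 0 to 1 member in each direction and 0 to 12 pathway genes. The cause was not tested. Among 173 refitted log2 folds of the 7 tested members, 158 kept direction and side of the threshold, 6 passed it and 9 changed sign; among 422 of the 17 named pathway genes, 385, 2 and 35 did. Gabpa changed sign with the replicate block (0.05), the GC content and length correction (0.01), both (0.10) and limma-voom with the correction (0.02), and Prkaa1 with both (0.0020). With the correction, with the replicate block added, and by limma-voom with the correction, the fold was 0.02, 0.02 and 0.03 for Tfam, 0.03, 0.03 and 0.03 for Gabpb1, -0.0043, -0.02 and -0.0100 for Prkab1 and 0.05, 0.08 and 0.07 for Cab39, which was at 0.03 with the replicate block alone. Hnf4a was at 0.0064 with median-of-ratios scaling, 0.02 with the replicate block and 0.01 with the block and correction. Quantile normalization gave 0.0097 for Prkag2 and -0.0074 for Atp5b, and TPM gave -0.0074 for Sirt2. Over the alternatives, the fold ranged from 0.16 to 0.26 for Esrra, 0.08 to 0.26 for Nrf1, -0.11 to -0.05 for Pprc1 and -0.24 to 0.02 for Sirt1. Without 1 library, over both tests, it ranged from -0.18 to 0.0093 for Gabpa, -0.09 to 0.0006 for Tfam, -0.13 to 0.0040 for Gabpb1, -0.10 to 0.0083 for Prkag2, -0.05 to 0.03 for Cab39, -0.0027 to 0.05 for Sirt2 and -0.04 to 0.03 for Hnf4a. Depth limits Ppargc1b and Prkaa2, with at most 8 and 3 reads in a library.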
